A study of Mus musculus with 18 samples.

Results

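*Gata4*, *Gata6*, *Sox17*, *Sox7*, *Foxa2*, *Foxa1*, *Hnf4a*, *Dab2* and *Pdgfra*, a group of regulators and early markers of endoderm, were followed by symbol in all 18 RNA-seq libraries, and all 9 were found among 24346 gene symbols. The libraries came from 2 female F1 hybrid mouse ES cell lines, whose alleles differ by SNPs. In *Tsix*-stop cells (strain-129 x *cast*), a transcriptional stop in *Tsix* on the strain-129 X chromosome directs silencing to that chromosome, whereas E8 cells (C57BL/6J x *cast*) inactivate either X. *Tsix*-stop libraries came from ES cells before differentiation (D0) and from embryoid bodies (EBs) at D15, of wt cells (2 libraries a day), cells with a *Kdm6a* KO (2 a day) and a CRISPR control (1 a day). E8 libraries were made at D7 and D15 of differentiation from wt and *Kdm6a* KO cells (2 libraries each). All of these cells were grown on inactivated feeder fibroblasts with LIF, and differentiation without LIF was not directed to any lineage. *Kdm6a* encodes an X-linked histone H3K27 demethylase. By the study's methods the *Tsix*-stop KO is an exonic deletion carried by 2 clones, which the labels do not assign to libraries, and the E8 KO is a promoter deletion carried by 1 clone, so the KO of each line differs in its deletion as well as in its background. The methods call the *Tsix*-stop wt libraries biological replicates. For E8 neither they nor the labels say that the replicates were separate cultures, so E8 p-values measure only the spread between these libraries, which may be technical.

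GATA4 and GATA6 are zinc finger transcription factors that bind GATA motifs and, when supplied to ES cells, drive them into extraembryonic endoderm. SOX17 and SOX7 act beside and after GATA6 in primitive endoderm, FOXA1 and FOXA2 are forkhead factors that open chromatin in definitive and visceral endoderm, and HNF4A is a nuclear receptor needed for the differentiation of visceral endoderm. PDGFRA is a receptor tyrosine kinase on primitive endoderm and on mesodermal cells, and DAB2 is an endocytic adaptor that works with the receptors LRP2 and CUBN at the surface of visceral endoderm. In EBs an outer layer of primitive endoderm normally forms around the ES cells and goes on to visceral and parietal endoderm.

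On GRCm38 (GENCODE vM21), *Gata4* (chr14:63198922-63271692) and *Sox7* (chr14:63943673-63950732) lie on the same chromosome, and *Foxa2* (chr2:148042877-148046969) and *Hnf4a* (chr2:163506808-163572910) share another. *Sox17* is at chr1:4490931-4497354, *Foxa1* at chr12:57540628-57546916, *Dab2* at chr15:6299788-6440712 and *Pdgfra* at chr5:75152292-75198215. *Hnf4a* overlaps its antisense gene *Hnf4aos*, and *Gata6*, *Sox17*, *Dab2* and *Pdgfra* also overlap other annotated genes. Whether counting used the strand is not given in the sources used here, so reads of overlapping genes cannot be told apart. Because the members moved together, the 250 bases before their starts were searched for motifs of the members' own factors. RefSeq (GRCm38.p6) gave 9 starts for 5 of the 9 members (*Foxa2*, *Foxa1*, *Hnf4a*, *Dab2* and *Pdgfra*), and the other members had no entry. A GATA motif (AGATAA or TGATAA, and also AGATAG or else TGATAG, on either strand) was found before 1 start each of *Foxa2*, *Hnf4a* and *Dab2*, where 26.5% of all 32851 promoter windows of this length hold one. A forkhead motif (TGTTTAC or TGTTTGC) was found before *Foxa1*, against 7.29% of all windows. Neither the SOX motif (ACAATGG or ACAATAG, in 5.03% of all windows) nor the HNF4 motif (CAAAGTCCA, 0.384%) was found in any of the 9 windows. The 4 matches, on the gene's strand with the motif in capitals, are shown because they are the only letters of these factors' motifs in the windows, and the shares of all windows place them near the background.
*Foxa2*, chr2:148045630-148045659, minus strand, 183 bases before an internal start: ctgttagccttgAGATAAtattaactttgt
*Hnf4a*, chr2:163506793-163506822, plus strand, 52 bases before the start: gaagaatcaataAGATAAccgggcggggtg
*Dab2*, chr15:6299598-6299627, plus strand, 179 bases before the start: tgatttttcttcTGATAAcaggaataggag
*Foxa1*, chr12:57546234-57546263, minus strand, 141 bases before a start: tatactgctttGTAAACAaagtgagggcca
The *Foxa1* match is the reverse complement of TGTTTAC. Distances are to RefSeq starts, which can differ from the GENCODE gene ends given above. The *Hnf4a* stretch spans the GENCODE start of the gene, and those of *Foxa2* and *Foxa1* lie inside the GENCODE gene. The windows of *Hnf4a*, *Foxa1* and *Dab2* overlap an exon annotated by GENCODE. A match in letters is a description and shows neither binding nor use of the site.

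*Tsix*-stop libraries held 51091152 to 68796179 counts, of which 9210225 to 12095548 could be assigned to an allele by SNPs. Their levels are given as CPM, counts scaled to the same library total with TMM library sizes, and levels of different genes are compared only as TPM, which divides by exon length. E8 values were deposited as TPM, so their depth is unknown. The targeted gene set the lines apart. In *Tsix*-stop cells *Kdm6a* stood at 139 and 208 CPM in the wt libraries at D0, against 129.4 and 48.4 in the KO libraries, and the CRISPR control had 128. At D15 it stood at 138 and 109 CPM in wt EBs and at 93.3 and 28.0 in KO EBs, with 93.5 for the CRISPR control, so the library labelled KO replicate 1 lay close to the control on both days and the KO was not called by edgeR (FDR 0.189 at D15). The deletion leaves other exons, whose reads are counted with the gene, so this level does not test the label. In E8 cells *Kdm6a* fell from 46.7 to 47.8 TPM in the wt libraries to 0.00578 to 0.0319 in the KO libraries. The CRISPR control libraries are grouped by their labels, while the names of their deposited tables carry the word for knockout, so results that rest on them rest on a label in doubt.

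At D15 every member was lower in both *Tsix*-stop KO libraries than in both wt libraries. *Gata4* was measured at 64.6 and 64.7 CPM in wt EBs and at 9.18 and 11.3 in KO EBs, and *Gata6* at 34.0 and 30.9 against 4.51 and 3.06. *Sox17* stood at 16 and 16.4 CPM against 1.11 and 2.83. Between the groups these values did not overlap, and the wt replicates were closer to each other than the KO replicates were for *Gata4* and *Sox17*. *Foxa2* stood at 10.6 and 10.8 CPM in wt and 0.935 and 2.52 in KO, and *Foxa1* at 21 and 20.3 against 1.45 and 1.93. *Hnf4a* stood at 20.3 and 18.9 CPM against 1.65 and 2.23. KO replicate 2 had the higher value of the KO pair for all of these but *Gata6*. The genes of the receptor and the adaptor followed the same order. *Pdgfra* was at 49.6 and 44.9 CPM in wt against 5.22 and 4.68 in KO. *Dab2*, the most abundant member in counts, was at 145 and 113 against 12.8 and 26.5.

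Genes with a change of 2-fold or more and an FDR (Benjamini-Hochberg) of 0.1 or less counted as called in edgeR's quasi-likelihood fit of the 8 wt and KO libraries. All 8 members that passed the filter of 2.5 CPM in 2 libraries were called lower in KO EBs, where 14.9% of 13121 genes tested were called in either direction and 11.1% lower. Their log2 fold changes ran from -3.62 ± 0.26 for *Foxa1* (SE, FDR 0.000133) to -2.65 ± 0.42 for *Foxa2* (FDR 0.00253), with *Gata4* at -2.67 ± 0.18 (FDR 0.000109) and *Gata6* at -3.11 ± 0.34 (FDR 0.000563). The median of the 8 was -3.08, and the median of all genes tested was -0.00. *Sox17*, *Foxa2*, *Foxa1* and *Hnf4a* would not have reached 2.5 CPM in 2 libraries without the wt EBs, so for them the filter itself required a high value there. *Sox7* did not reach it and was not tested in this fit. It had 125 and 92 counts in wt EBs (1.96 and 1.67 CPM) and 53 and 45 in KO EBs (0.901 and 0.828 CPM), the smallest difference of the group, at 2.12-fold in mean TPM where the others ran up to 12.3-fold. Without overlap between the libraries 37.8% of genes tested were lower in KO EBs. An exact permutation test of 2 against 2 libraries cannot give a two-sided p below 0.333. Each of the 8 calls held when any 1 library was left out, and that of *Hnf4a* was lost when the CRISPR control was counted as wt (-2.78, FDR 0.128).

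**Figure D1:**
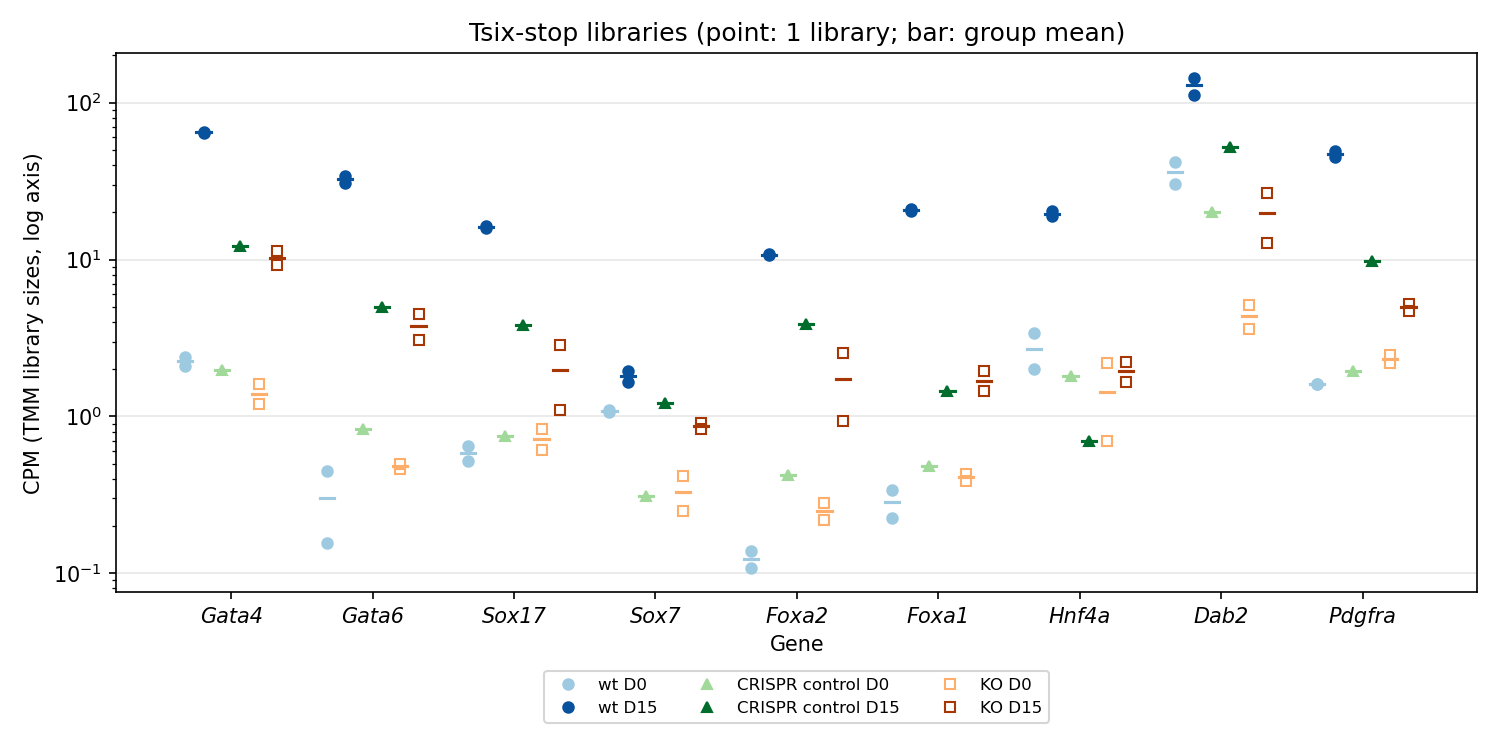
Level of each gene in the 10 *Tsix*-stop libraries in CPM on a log axis, with 1 point per library and a bar at the group mean. The wt EBs at D15 (dark blue) lie above the KO EBs and the CRISPR control EBs for all 9 genes, and the CRISPR control EBs lie between wt and KO for all but *Foxa1* and *Hnf4a*.

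The CRISPR control EBs did not stand with the wt EBs. All 9 members were lower in this library than in both wt libraries at D15, where 38.7% of genes tested were. *Gata4* was at 12.1 CPM, *Gata6* at 4.96, *Sox17* at 3.80, *Foxa2* at 3.85 and *Sox7* at 1.21, each above both KO libraries. *Foxa1*, at 1.45 CPM, lay within the KO range in TPM, and *Hnf4a*, at 0.699 CPM, lay below both KO libraries. *Dab2*, at 52.5 CPM, and *Pdgfra*, at 9.77, lay above both KO libraries. A fit of all 10 *Tsix*-stop libraries, chosen after the data were seen, set KO EBs against the CRISPR control in place of wt. Log2 fold changes were -1.42 for *Dab2*, -1.16 for *Foxa2*, -0.98 for *Pdgfra* and -0.95 for *Sox17*. They were -0.39 for *Gata6*, -0.24 for *Gata4*, 0.22 for *Foxa1* and 1.47 for *Hnf4a*. With 1 control library the spread between control libraries is unknown, so these values do not show whether KO and control were alike. KO and control were both set against the same 2 wt libraries, and the clone, the editing and the genotype cannot be told apart in them.

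From D0 to D15 all 8 members tested rose in wt cells, where 24.2% of genes were called higher. *Sox17*, *Foxa2*, *Foxa1* and *Hnf4a* passed the filter only through the wt EBs. The filter thus required a high value in wt at D15 for them, which bears on this rise and on the interaction below. *Gata6* went from 0.448 and 0.157 CPM to the levels given above, a log2 fold change of 6.73 ± 0.43 (SE, FDR 5.26e-06), and *Gata4* from 2.1 and 2.39 CPM, a change of 4.87 ± 0.20 (FDR 1.51e-06). *Foxa2* was at 0.108 and 0.139 CPM at D0, which is 7 and 8 counts, and changed by 6.44 ± 0.55. *Foxa1* changed by 6.19 ± 0.31, *Pdgfra* by 4.89 ± 0.19 and *Sox17* by 4.80 ± 0.45. The smallest rises of the 8 were those of *Hnf4a* (3.40 and 2.00 CPM at D0) at 2.87 ± 0.48 and *Dab2* (30.3 and 42.1 CPM) at 1.85 ± 0.33. *Gata4* rose more than *Hnf4a* from a similar mean level at D0 (1.93 and 1.87 TPM). *Sox7*, which was not tested, rose 1.91-fold in mean TPM.

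In KO cells 7 of 8 members also rose, where 27.6% of 13121 genes were called and 2620 of them higher. *Gata6* rose by 2.98 ± 0.38 on the log2 scale (FDR 0.000271), *Gata4* by 2.88 ± 0.20, *Foxa2* by 2.79 ± 0.48, *Dab2* by 2.18 ± 0.35, *Foxa1* by 2.05 ± 0.28, *Sox17* by 1.46 ± 0.42 (FDR 0.0167) and *Pdgfra* by 1.10 ± 0.17. Without KO replicate 2 at D15, *Sox17* had a log2 fold change of 0.65 (FDR 0.138). *Hnf4a* had 0.696 and 2.18 CPM at D0 and 1.65 and 2.23 at D15 in KO, a change of 0.44 ± 0.48 (FDR 0.457), and its D0 replicates decided it, since it was called at 1.48 without KO replicate 2 at D0 and was -0.16 without KO replicate 1. The interaction of genotype and day was called lower for 7 of 8 members, where 10.5% of genes were, from -1.99 ± 0.26 for *Gata4* to -4.14 ± 0.41 for *Foxa1*. *Dab2* was the exception at 0.33 ± 0.46 (FDR 0.638). With the CRISPR control added to the wt group of its day 1 of 8 interactions was called, that of *Pdgfra*. The share of all genes called in that fit is not given here. The control library rose from D0 to D15 by 2.90-fold to 10.1-fold in TPM for all members but *Hnf4a*, which was at 1.82 CPM at D0 and 0.699 at D15.

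At D0 the group was low in all *Tsix*-stop cells except for *Dab2*. *Dab2* stood at 30.3 and 42.1 CPM in wt ES cells and at 5.13 and 3.58 in KO ES cells, with 20.1 for the CRISPR control, and was called lower in KO (-3.05 ± 0.35, FDR 0.00194). It was the only member called of 8, where 8.12% of genes were called and 5.01% lower, and it missed the FDR limit when the CRISPR control was added to wt (-2.82, FDR 0.107). *Gata4* was at 2.1 and 2.39 CPM in wt and 1.19 and 1.60 in KO (-0.68 ± 0.20, FDR 0.0551, under 2-fold). *Pdgfra* was at 1.61 and 1.62 CPM in wt and 2.20 and 2.46 in KO (0.53 ± 0.17, FDR 0.0819, under 2-fold). *Sox7*, which was not tested on all reads, had 71 and 61 counts in wt against 25 and 16 in KO, and the CRISPR control had 20. *Gata6*, *Sox17*, *Foxa2* and *Foxa1* had 7 to 53 counts in every D0 library, and no difference between KO and wt passed the test for them on all reads. For *Gata6* that changed when wt replicate 1 was left out, with a log2 fold change of 1.60 (FDR 0.0873). *Hnf4a* was called lower (-1.95, FDR 0.0351) without KO replicate 2, so the spread within its KO pair decided the call.

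Reads with SNPs showed from which allele the members were transcribed. In *Tsix*-stop cells the strain-129 share of the median autosomal gene was 50% to 51.6% in every library. *Dab2* at D0 came almost wholly from the *cast* allele. In wt ES cells it had 8 reads with strain-129 SNPs against 373 with *cast* SNPs in replicate 1, a strain-129 share of 2.1% (95% Wilson interval 1.07% to 4.09%), and 11 against 489 in replicate 2 (2.20%, 1.23% to 3.90%). KO ES cells had 2 against 69 and 2 against 44, and the CRISPR control 7 against 263 (2.59%, 1.26% to 5.25%). Such a share, under 5% in both wt libraries at D0, was found for 66 of 10712 autosomal genes with at least 20 SNP reads (0.616%).

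At D15 both alleles of *Dab2* were read, with the strain-129 share still below the autosomal median. In wt EBs there were 860 reads of strain-129 against 965 of *cast* (47.1%, 44.8% to 49.4%) and 623 against 716 (46.5%, 43.9% to 49.2%), in the CRISPR control EBs 272 against 359 (43.1%, 39.3% to 47.0%) and in KO EBs 54 against 109 (33.1%, 26.4% to 40.7%) and 119 against 181 (39.7%, 34.3% to 45.3%). The strain-129 share of both KO libraries was thus below that of both wt libraries, with intervals that did not touch for replicate 1. Most *Dab2* reads behind the D0 difference between KO and wt were *cast* reads, on which it was called (-2.97 ± 0.31, FDR 7.31e-05), while the strain-129 reads, 11 or fewer in every library, had -2.21 ± 0.87 (FDR 0.159). On alleles at D0, 2 other calls were made, where 6.38% of genes were called on strain-129 and 8.85% on *cast*. *Sox7* was lower in KO on strain-129 (24 and 30 reads in wt, 9 and 2 in KO, FDR 0.0748), and *Gata6* was higher on *cast*, with 0 reads in both wt libraries and 2 and 4 in KO (FDR 0.0517), too few for a fold change.

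**Figure D2:**
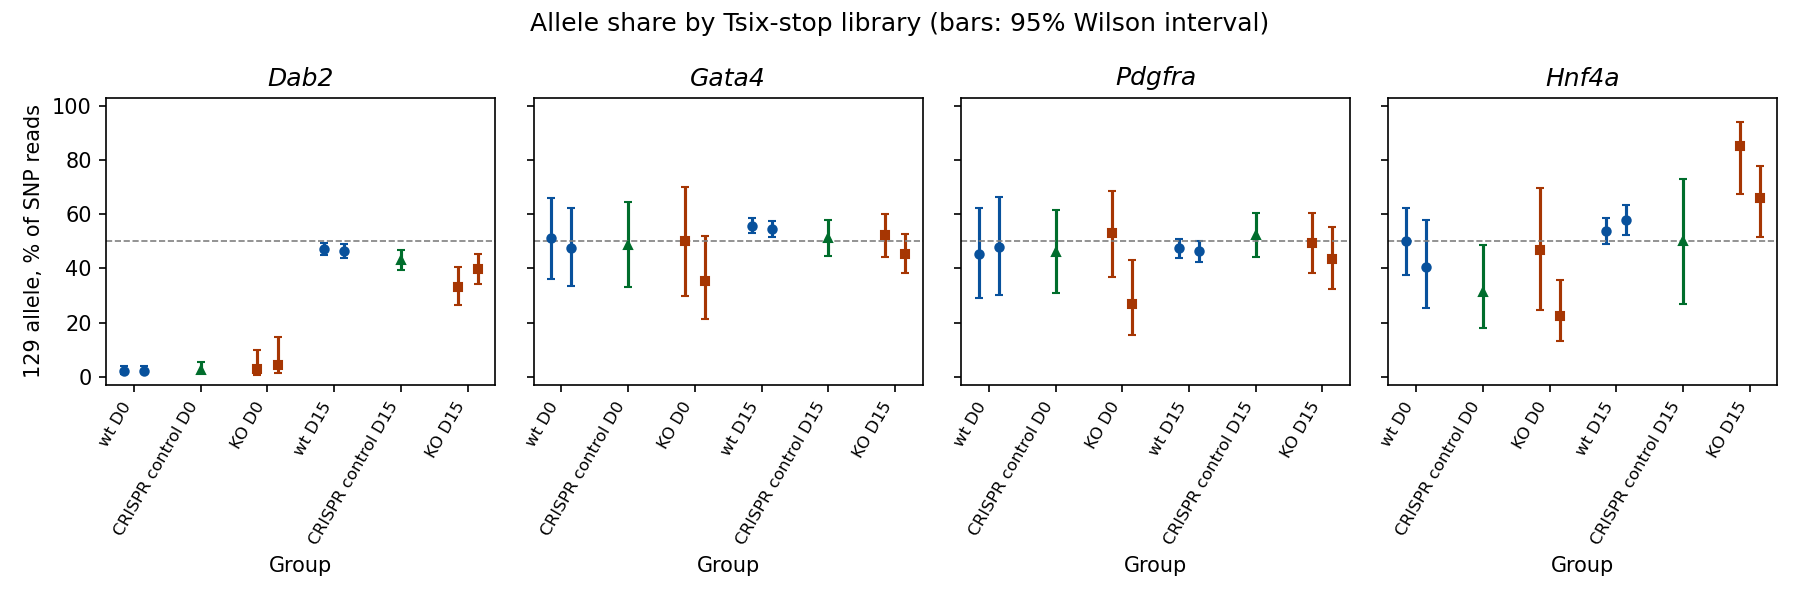
Share of SNP reads from the strain-129 allele, in percent, in each *Tsix*-stop library for *Dab2*, *Gata4*, *Pdgfra* and *Hnf4a*, with 1 point per library and 95% Wilson intervals as bars. *Dab2* sits between 2.1% and 4.35% in all 5 libraries at D0 and between 33.1% and 47.1% in all 5 at D15, while *Gata4* and *Pdgfra* lie between 43.5% and 55.9% in all 5 at D15.

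The other members were read from both alleles in wt EBs. *Gata4* had 718 reads of strain-129 and 567 of *cast* (55.9%) and 617 and 512 (54.7%), *Gata6* had 174 and 173 and 130 and 144, and *Pdgfra* 354 and 392 and 281 and 326. *Foxa1* leaned to *cast*, with 58 against 135 (30.1%, 24.0% to 36.9%) and 35 against 109 (24.3%, 18.0% to 31.9%). *Sox7* leaned to strain-129 in wt ES cells, with 24 against 4 (85.7%, 68.5% to 94.3%) and 30 against 4 (88.2%, 73.4% to 95.3%), and less so at D15 (43 against 23 and 16 against 10). *Hnf4a* had 23 against 4 in KO EBs of replicate 1 (85.2%, 67.5% to 94.1%) and 31 against 16 in replicate 2 (66.0%, 51.7% to 77.8%), where wt EBs had 224 against 192 and 185 against 134. Intervals cover counting error only. Fitted on the reads of each allele, all 7 members that averaged 20 or more SNP reads across the 8 wt and KO libraries were called lower in KO EBs on strain-129 (9.15% of 12299 genes were) and 6 of 7 on *cast* (12.5%), where *Sox7* was the exception (-1.04 ± 0.68, FDR 0.281). On strain-129 reads the *Sox7* call (-1.78 ± 0.65, FDR 0.0651) was lost without KO replicate 2 (FDR 0.240). *Gata4* changed by -2.98 ± 0.18 on strain-129 and -2.59 ± 0.25 on *cast*, and *Foxa1* by -3.11 ± 0.50 and -5.22 ± 0.52. The difference between the alleles was not tested. *Foxa2* and *Sox17* had a lower mean and were not tested on alleles, although they had 35 to 50 SNP reads in the wt EBs.

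In E8 cells the KO went with higher levels of the same genes. At D7 all 9 members were higher in both KO libraries than in both wt libraries, as were 52.6% of genes tested. *Gata4* was measured at 6.33 and 6.12 TPM in wt and 136 and 135 in KO, *Gata6* at 2.60 and 2.68 against 59.4 and 57.3, and *Sox17* at 1.81 and 1.53 against 46.9 and 47.2. *Sox7*, too low to test in *Tsix*-stop cells, was at 1.44 and 1.62 TPM in wt and 21.3 in both KO libraries. These are ratios of mean TPM of 21.8, 22.1, 28.1 and 14. *Foxa2* was at 2.45 and 2.96 TPM against 39.3 and 40.6, *Hnf4a* at 1.10 and 0.969 against 12.9 and 12.6, and *Foxa1* at 0.854 and 0.822 against 3.29 and 3.12. *Pdgfra* was at 1.28 and 1.30 TPM against 45.5 and 43.5. *Dab2* had the widest gap, 7.40 and 6.92 TPM against 299 and 286, a ratio of 40.8, and *Foxa1* the narrowest, a ratio of 3.82.

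With limma on log2(TPM + 1), a scale that understates the change of low genes, all 9 members were called higher in E8 KO at D7, where 17.5% of 12452 genes tested were called and 11.4% higher. Log2 differences ran from 1.19 ± 0.11 for *Foxa1* (SE, FDR 3.21e-05) to 5.17 ± 0.05 for *Dab2* (FDR 7.06e-10), with a median of 4.03 against 0.10 for all genes tested. The median expressed autosomal gene was itself higher in KO libraries (22.1 to 22.9 TPM) than in wt libraries (18.9 to 19.7 TPM), and after scaling it to the same level all 9 were called at D7 and 7 of 9 at D15, as before. *Sox17*, *Sox7*, *Foxa2*, *Foxa1*, *Hnf4a* and *Pdgfra* would not have reached the filter of 2.5 TPM in 2 libraries without the KO libraries, and *Foxa1* and *Hnf4a* not without those of D7.

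**Figure D3:**
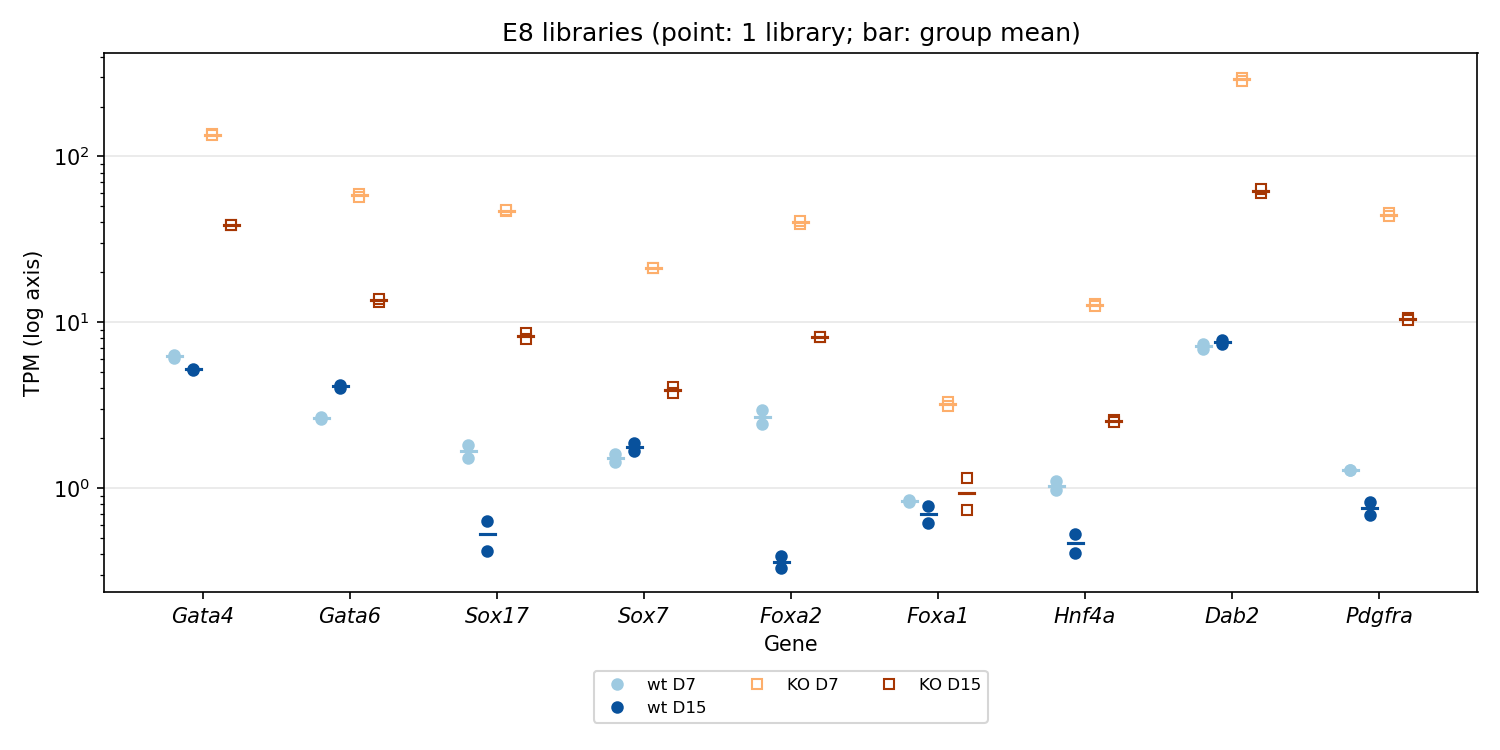
Level of each gene in the 8 E8 libraries in TPM on a log axis, with 1 point per library and a bar at the group mean. KO libraries (open squares) at D7 lie above all wt libraries for the 9 genes and are lower again at D15, where *Foxa1* overlaps with wt.

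At D15, 7 of 9 members were called higher in E8 KO, where 7.67% of genes were and 10.7% were called. Of the 7, *Sox17*, *Foxa2*, *Hnf4a* and *Pdgfra* passed the filter only through KO libraries, so for them it required a high value in KO. Without overlap 8 of 9 were higher, and so were 52.0% of genes tested. *Gata4* was at 5.26 and 5.18 TPM in wt and 38.7 and 38.4 in KO (2.67 ± 0.03), *Gata6* at 4.04 and 4.20 against 13.3 and 13.9 (1.51 ± 0.05) and *Foxa2* at 0.392 and 0.331 against 8.20 and 8.18 (2.76 ± 0.07). *Dab2* was at 7.82 and 7.45 TPM against 59.9 and 63.4 (2.86 ± 0.05). *Sox7*, at 1.67 and 1.88 against 4.07 and 3.76 TPM, passed the FDR limit but not 2-fold on this scale (0.82 ± 0.07, FDR 2.34e-05), and with a pseudocount of 0.1 TPM it was called at 1.10. *Foxa1* overlapped between the groups, at 0.621 and 0.779 against 1.15 and 0.736 TPM (0.18 ± 0.11, FDR 0.174). *Sox17*, *Hnf4a* and *Pdgfra* were called at 2.61 ± 0.09, 1.27 ± 0.07 and 2.71 ± 0.06.

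From D7 to D15 all 9 members fell in E8 KO, where 2.70% of genes were called lower, by 1.12 ± 0.11 on the log2 scale for *Foxa1* to 2.37 ± 0.09 for *Sox17*. *Foxa1* and *Hnf4a* passed the filter only through the KO libraries of D7, so for them it required a high value at the start of this fall. The call of *Foxa1* was lost without KO replicate 2 at D15 (-0.97). In wt only *Foxa2* was called, from 2.45 and 2.96 to 0.392 and 0.331 TPM (-1.44 ± 0.07, FDR 1.46e-05), where 1.41% of genes were called. *Sox17* stood at 1.81 and 1.53 TPM at D7 and 0.419 and 0.635 at D15 in wt, a drop that was called with a pseudocount of 0.5 or 0.1 TPM (-1.09 and -1.52), and *Hnf4a* was called with 0.1 (-1.0). *Gata6* stood higher at D15, at 4.04 and 4.20 against 2.60 and 2.68 TPM, by less than 2-fold (0.49 ± 0.05). The interaction of genotype and day was called lower for 8 of 9 members (3.36% of genes were), and for *Foxa2* it was -0.72 ± 0.10 (FDR 0.000807), under 2-fold, and 0.33 with a pseudocount of 0.1 TPM. With that pseudocount the interaction of *Sox17* was under 2-fold (-0.97), and that of *Foxa1* was under 2-fold when any of 3 libraries was left out (-1.0 to -0.86).

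In E8 cells *Dab2* leaned to *cast* in wt and was near balance in KO. The deposited allele columns are each on a scale of their own, the median autosomal gene having 3.99 to 4.85 times as much *cast* as BL6 TPM, and shares are given after this ratio was set equal. The BL6 share of *Dab2* was 16.8% and 18.6% in wt at D7 and 13.1% and 16.9% at D15, against 53.2% and 52.4% in KO at D7 and 48.3% and 47.8% at D15. On the BL6 allele *Dab2* went from 0.872 and 0.782 TPM in wt to 88.9 and 91.7 in KO at D7, and on *cast* from 18.7 and 16.4 to 315 and 333. *Gata4* by comparison had a BL6 share of 51.6% and 42.4% in wt and 54.9% and 53.7% in KO at D7. *Gata6* had one of 24.5% to 28.4% in the 4 KO libraries and 19.1% to 31.5% in wt. *Sox7* also differed at D7, with 83.7% and 81.5% in wt and 41.8% and 44.5% in KO. So did *Hnf4a*, with 72.4% and 75.0% against 45.5% and 43.3%, but its shares overlapped at D15. Both genes were low in wt. Shares of *Sox17*, *Foxa2* and *Foxa1* overlapped between wt and KO at D7. No interval can be given, since these values carry no counts. The share of all genes whose alleles shifted in this way between wt and KO was not counted.

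**Figure D4:**
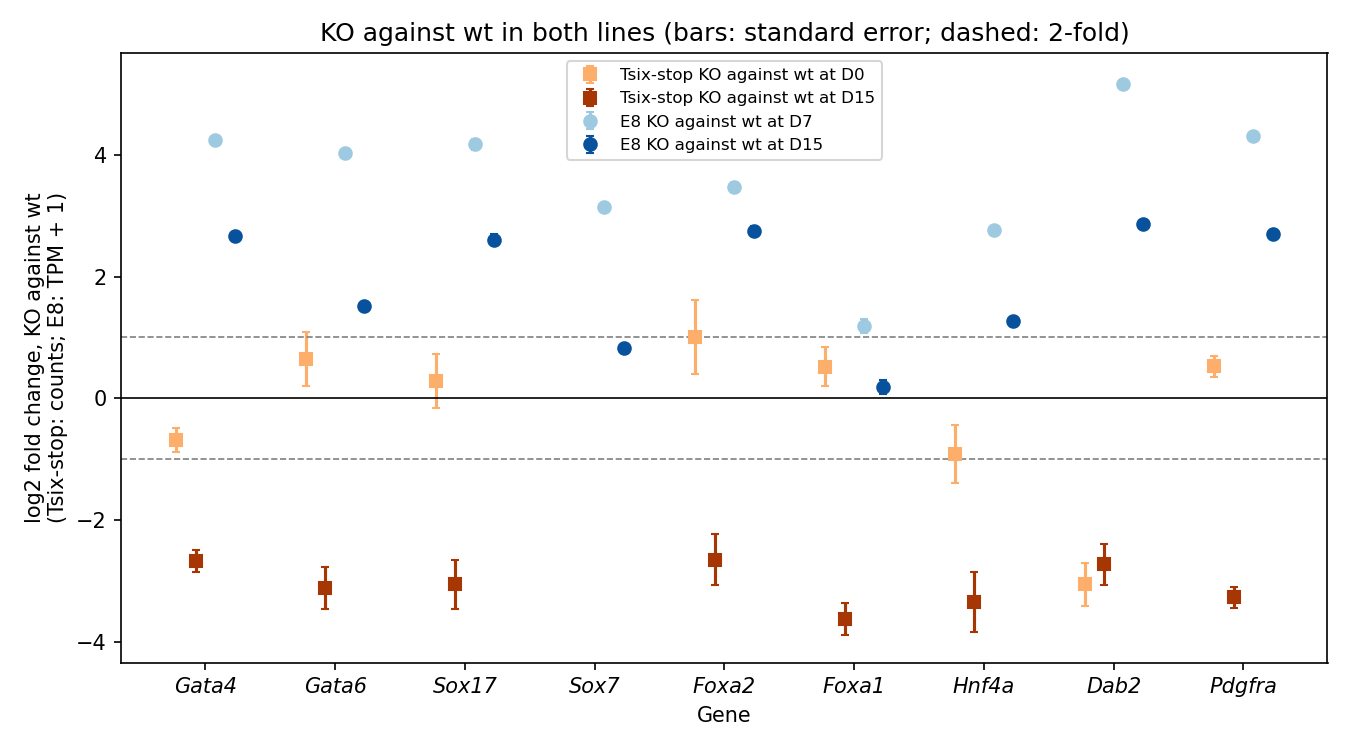
Log2 fold change of KO against wt for each gene in both lines and on both days, with standard errors as bars and dashed lines at 2-fold. At D15 the *Tsix*-stop values (brown squares) lie between -3.62 and -2.65 and the E8 values (dark blue circles) between 0.18 and 2.86, and *Sox7*, not tested on all reads in *Tsix*-stop cells, has no value there.

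The lines therefore had opposite signs at D15, the day they share, for all 9 members in mean TPM. For *Foxa1* the E8 libraries of wt and KO overlapped, so its sign there is open. *Sox7* was not called in E8 and was not tested on all reads in *Tsix*-stop cells. The other 7 members did not overlap between wt and KO in either line. Of all genes tested, 37.8% lay wholly below wt in *Tsix*-stop KO EBs and 52.0% wholly above wt in E8 KO. The share of genes that did both was not counted. The filter required a high value in E8 KO for *Sox17*, *Foxa2*, *Hnf4a* and *Pdgfra*. For *Sox17*, *Foxa2* and *Hnf4a* it also required one in wt *Tsix*-stop EBs. KO over wt ran from 0.0813 (*Foxa1*) to 0.472 (*Sox7*) in *Tsix*-stop EBs and from 1.34 (*Foxa1*) to 22.7 (*Foxa2*) in E8. The difference between lines was not tested, because the values of each line come in a different unit and the lines differ in deletion, clone and X inactivation. The levels themselves show where each group stood. *Gata4* had 63.3 ± 1.59 TPM (SD, n = 2) in wt *Tsix*-stop EBs at D15 and 5.22 ± 0.06 in wt E8 cells at D15, and in KO it had 9.96 ± 1.65 and 38.6 ± 0.22. *Gata6* had 19.1 ± 1.78 and 4.12 ± 0.11 TPM in wt and 2.20 ± 0.56 and 13.6 ± 0.40 in KO, and *Pdgfra* had 18.0 ± 1.73 and 0.761 ± 0.101 in wt and 1.87 ± 0.11 and 10.5 ± 0.16 in KO. *Tsix*-stop TPM was computed here and E8 TPM by the authors, so these levels are set side by side only.

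The members had the same highest group within a line, while the order of the lower groups differed between them. In *Tsix*-stop cells wt D15 was the highest group for all 9, and in TPM it did not overlap with the group next in order for any of them. The next was the CRISPR control at D15 for *Gata4*, *Gata6*, *Sox17*, *Sox7*, *Foxa2*, *Dab2* and *Pdgfra*. For *Foxa1* the KO and CRISPR control EBs overlapped, and for *Hnf4a* the groups below wt D15 overlapped with their neighbours throughout. In E8 cells KO D7 was the highest group for all 9 and KO D15 the next, and of these only *Foxa1* at KO D15 overlapped with a wt group. The share of all genes with the same highest group was not counted in either line, so these counts do not set the members apart. Pearson's r of log2(CPM + 1) between pairs of members over the 10 *Tsix*-stop libraries ran from 0.70 to 0.99 with a median of 0.95 (28 pairs), and r of log2(TPM + 1) over the 8 E8 libraries from 0.86 to 1.00 with a median of 0.96 (36 pairs). These points share libraries and fall into groups of a genotype and day, so r describes the order of those groups.

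The genes whose pattern over the 10 *Tsix*-stop libraries was most like that of *Gata4* were *Vil1* (r = 0.997), which bundles actin in microvilli, *Fgd3* (0.995) and *Col6a2* (0.994). For *Gata6* they were *Adamts1* (0.996), *P3h2* (0.994) and *Car9* (0.994), and for *Sox17* *Pear1* (0.997), *Klhl6* (0.996) and *Bnc1* (0.995). For *Foxa2* they were *Lhx1* (0.995), *Lppr3* (0.995) and *Col16a1* (0.994), and for *Foxa1* *Daam2* (0.999), *Lgals2* (0.998) and *Bves* (0.997). Those of *Pdgfra* were *Maged2* (0.995), *Hapln1* (0.992) and *Klhdc8b* (0.992), and those of *Hnf4a*, whose likeness was lower, *Plxna4* (0.973), *Angpt2* (0.972) and *AW549542* (0.970). *Dab2* was most like *Serpinh1* (0.968), which encodes a collagen chaperone, *Acot11* (0.960) and *Med12l* (0.955). Over the 8 E8 libraries r was again high between *Dab2* and *Serpinh1* (0.997), *Gata4* and *Fgd3* (0.986), *Gata6* and *P3h2* (0.983) and *Gata4* and *Vil1* (0.949). It was 0.353 between *Gata4* and *Col6a2*, -0.0942 between *Foxa1* and *Daam2* and -0.839 between *Gata6* and *Car9*. These libraries fall into the same few groups, as above.

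Other genes of the pathway were read from lists written with earlier results known. They had to pass the same filters as the members, so a gene low elsewhere was tested only through the group where it was high. Of 16 further endoderm regulators tested in *Tsix*-stop EBs, 6 were lower in KO at D15, against 11.1% of all genes, and none higher (median -0.52). *Lhx1* fell by 3.35 ± 0.65 on the log2 scale and *Cer1*, a secreted Nodal antagonist of anterior visceral endoderm, by 3.17 ± 0.54, and *Foxa3*, a relative of *Foxa1* and *Foxa2*, by 1.98 ± 0.36. *Zfpm1* (FOG1), a GATA cofactor, had -0.91 ± 0.18 and *Zfpm2* -1.05 ± 0.69, neither called. In E8 KO at D7, 4 of 16 were higher and 1 lower, against 11.4% and 6.18% of all genes (median -0.19), with *Zfpm1* at 1.59 ± 0.07, *Foxa3* at 1.15 ± 0.07 and *Cer1* at -1.16 ± 0.12. At D15, 8 were higher and 1 lower in E8 KO, against 7.67% and 3.08% of all genes (median 0.99), led by *Mixl1* (3.89 ± 0.08) and *Lhx1* (2.37 ± 0.09).

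Except in E8 at D15, most genes of FGF and PDGF signalling, through which primitive endoderm is set apart from the epiblast, were not called. The numbers not called were 7 of 10 at D0 and 8 at D15 in *Tsix*-stop KO, and 8 at D7 and 5 at D15 in E8 KO. Of 10 tested, 2 were lower in *Tsix*-stop KO EBs, against 11.1% of all genes, the receptor *Pdgfrb* (-1.96 ± 0.20) and the ligand *Pdgfb* (-1.32 ± 0.31). The ligand genes *Pdgfa* (-0.69 ± 0.34) and *Pdgfc* (-0.14 ± 0.16) were not called. In E8 KO at D7 *Pdgfb* was higher (1.5 ± 0.06) and *Fgf4*, an ES cell ligand of FGF receptors, lower (-1.61 ± 0.03). Of all genes 11.4% were higher and 6.18% lower. At D15 4 of 10 were higher, against 7.67% of all genes, and *Fgf4* was lower (-1.38 ± 0.03), against 3.08%. *Pdgfa* was at 0.37 ± 0.05 and 0.20 ± 0.05 in E8 on these days, under 2-fold. At D0 in *Tsix*-stop KO, 3 of 10 were higher, against 3.11% of all genes, and none lower, among them *Spry4* (2.15 ± 0.73) and *Dusp6* (1.62 ± 0.29), which are feedback inhibitors of FGF signalling.

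Most listed genes of the endoderm layers were lower in *Tsix*-stop KO EBs and higher in E8 KO. The filters bear on these counts, since a gene near 0 elsewhere entered only through the group where it was high. *Ttr*, for example, had a D0 log2 fold change of 0 without an SE in *Tsix*-stop cells. How many listed genes entered in this way was not counted. Those not called at D15 were *Fst*, *Lamc1*, *Thbd*, *Amn*, *Apoe* and *Trf* in *Tsix*-stop cells and *Nid1* (-0.21), *Thbd* (0.41), *Apoe* (-0.72) and *Trf* (-0.94) in E8. Of 14 genes of the basement membrane and parietal endoderm, 11 were lower in *Tsix*-stop KO EBs, against 11.1% of all genes, and none higher (median -1.65), with *Plat* at -3.21 ± 0.34 and *Col4a2* at -2.11 ± 0.20. In E8 KO 13 of 14 were higher at D7, against 11.4% of all genes (median 3.99), led by *Col4a2* (6.20 ± 0.04) and *Col4a1* (6.01 ± 0.04), which encode the collagen IV of basement membranes, and 12 of 14 at D15, against 7.67% (median 2.88), led by the keratins *Krt19* (4.17 ± 0.08) and *Krt8* (4.13 ± 0.06). Of 14 visceral endoderm genes, again 11 were lower in *Tsix*-stop KO EBs and none higher (median -2.66), with *Fgb* at -6.43 ± 0.46 and *Apoa1* at -5.31 ± 0.30. *Cubn* and *Lrp2*, the receptors that DAB2 serves, fell by 1.58 ± 0.28 and 1.10 ± 0.40, while *Amn*, the partner of CUBN, was not called (0.19 ± 0.47). In E8 KO 12 of 14 were higher on each day, against 11.4% and 7.67% of all genes (medians 4.77 and 3.13), led by *Afp* (7.52 ± 0.04 and 5.70 ± 0.04) and *Ttr* (6.91 ± 0.06 and 4.59 ± 0.06), and *Amn* (4.71 ± 0.07 and 2.92 ± 0.07), *Cubn* (5.82 ± 0.06 and 3.66 ± 0.06) and *Lrp2* (3.37 ± 0.06 and 1.93 ± 0.06) were among them. At D0 in *Tsix*-stop cells 2 of the 14 visceral endoderm genes were lower in KO, against 5.01% of all genes (median -0.14). They were *Lrp2* (-2.0 ± 0.43) and *Cubn* (-1.13 ± 0.37), on the day on which *Dab2* was also lower. Of the 14 basement membrane and parietal genes 4 were lower at D0, among them *Krt19* (-3.98 ± 0.81) and *Plat* (-1.71 ± 0.49). Another 2 were higher, against 3.11% of all genes, *Fst* (2.96 ± 0.48) and *Col4a2* (1.05 ± 0.19).

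**Figure D5:**
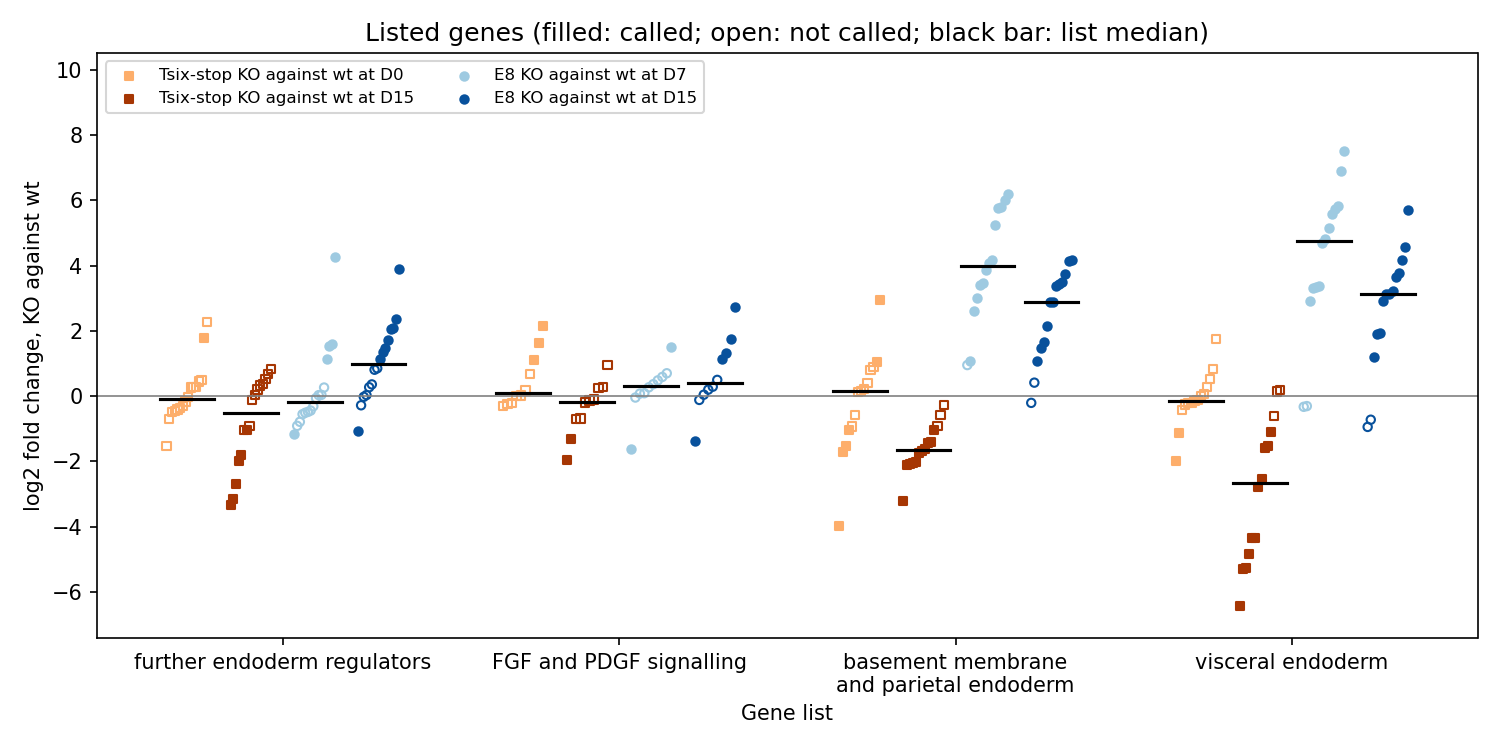
Log2 fold change of KO against wt for each gene of 4 lists in both lines and on both days, with filled symbols for called genes and a black bar at the list's median. The endoderm layer lists have medians of -1.65 and -2.66 in *Tsix*-stop EBs at D15 and of 2.88 to 4.77 in E8.

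In the CRISPR control EBs 12 of 14 visceral endoderm genes and 9 of 14 basement membrane and parietal genes were also below both wt libraries, against 38.7% of genes tested, with a median log2 ratio to wt of -1.90 and -0.89 in TPM + 0.1. For the further regulators it was 8 of 16 and for FGF and PDGF signalling 5 of 10. The study's own table of 39 germ layer genes, chosen on this experiment, holds 7 of the 9 members, so their direction in *Tsix*-stop cells is not independent of that choice.

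Markers of other cells moved with these genes, and in bulk RNA fewer cells of a type and less RNA per cell cannot be told apart. The summed TPM of 10 pluripotency genes was 9608 to 10473 in wt *Tsix*-stop EBs, 12342 to 15520 in KO EBs and 9030 in the CRISPR control EBs. In E8 it was 13755 to 13820 in wt and 4897 to 5025 in KO at D7, and 17302 to 18152 in wt and 8225 to 8435 in KO at D15, so between wt and KO the group with the higher endoderm genes had the lower pluripotency sum. The CRISPR control EBs, low in endoderm genes, had a low pluripotency sum as well. All 10 had a mean above 1 TPM in every group. The sum of 10 fibroblast and mesenchyme genes, which feeder cells and *Pdgfra*-positive mesenchyme also express, was 2688 to 3030 TPM in wt EBs, 222 to 274 in KO EBs and 124 in the CRISPR control EBs, and 11.7 to 27.1 in all D0 libraries, where *Tcf21* or *Dcn* was at 0. In E8 it was 27.9 to 37.9 TPM in wt and 53.4 to 66.7 in KO.

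The sum of 10 cardiac muscle genes, a lineage that also uses GATA4, was 343 to 352 TPM in wt EBs, 95.7 to 186 in KO EBs and 263 in the CRISPR control EBs, and in E8 17.7 to 32.1 in wt and 57.9 to 185 in KO. Trophoblast genes (6) summed to 344 to 370 TPM in wt EBs, 205 to 369 in KO EBs and 456 in the control EBs, and in E8 to 65.8 to 77.7 in wt and 102 to 288 in KO. Endothelial genes (8) summed to 152 to 161, 136 to 165 and 105 TPM in wt, KO and control EBs and to 128 to 170 and 96.8 to 157 in E8 wt and KO, where *Emcn* was at 0 in all groups but wt *Tsix*-stop EBs and E8 KO at D15. Neural and floor plate genes (7), whose floor plate cells use *Foxa2*, summed to 75.0 to 77.4, 138 to 170 and 75.5 TPM in wt, KO and control EBs and to 52.5 to 71.0 and 57.5 to 76.9 in E8 wt and KO. *Mef2c* of the cardiac list was at 0 in the control at D0. The median strain-129 share of X-linked genes, which falls as that X is silenced, was 29.1% and 31.6% in wt EBs, 45.7% and 41.3% in KO EBs and 32.9% in the control EBs. The part of other cells, or of X silencing, in the levels of the members was not tested.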

How the data were processed

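The files that the authors deposited hold estimated counts of *Tsix*-stop libraries and TPM of E8 libraries. The submitters' notes name TopHat2 2.1.1, Bowtie2 2.4.5 and mm10, and the methods describe mapping to pseudo-genomes of each parent and separation of reads by SNP. The annotation is not given in the sources used here. The count on the 129 genome (rounded, 7.1% of values were not whole) and the E8 column of the BL6 genome were taken as diploid levels, and the sources do not state the columns' meaning. In E8, 537 repeated symbols were summed. *Tsix*-stop TPM used GENCODE vM21 exon lengths (23310 symbols matched, 665 by synonym). Counts were fitted with edgeR 4.0.16 (TMM, quasi-likelihood) over the 8 wt and KO libraries by genotype and day, for genes with 2.5 CPM in 2 libraries, and E8 log2(TPM + 1) with limma 3.58.1 (trend) over genes with 2.5 TPM in 2 libraries, with Benjamini-Hochberg adjustment over all genes. DESeq2 1.42.0 was an alternative. The scripts were tested on simulated data. All members are named, with up to 4 called examples per list plus direct partners and, per member, the 3 genes of highest r. The members and lists were chosen with earlier results of these data known. The study's text describes E8 RNA-seq at other days, so E8 groups rest on GEO's labels alone. Cut&Run data were not analysed here, and some members of the regulator list are counted but not reported by name.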

Additional observations from a re-analysis of the deposited data

Results flagged for a closer look

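In *Tsix*-stop cells the interaction term of edgeR's quasi-likelihood fit (D15 minus D0, log2) was called lower for 7 of 8 members, where 10.5% of genes were. With the CRISPR control added to wt 1 of 8 was called. Without the control the values were -1.99 for *Gata4*, -3.75 for *Gata6*, -3.34 for *Sox17*, -3.65 for *Foxa2*, -4.14 for *Foxa1*, -2.44 for *Hnf4a* and -3.79 for *Pdgfra*. In E8 cells limma's interaction term (D15 minus D7) was called lower for 8 members, where 3.36% of genes were. It was -1.57 for *Gata4*, -2.52 for *Gata6*, -1.56 for *Sox17*, -2.32 for *Sox7*, -1.01 for *Foxa1*, -1.49 for *Hnf4a*, -2.31 for *Dab2* and -1.61 for *Pdgfra*. That of *Foxa1* fell under 2-fold without KO replicate 2 at D15 (-0.86). The sign is the same in both lines, but in *Tsix*-stop cells it is a drop that appears at D15, and in E8 cells a rise that is smaller at D15 than at D7.

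At D15 every KO library lay below every wt library in *Tsix*-stop cells and above every wt library in E8 cells for 7 members that were tested in both lines. Of all genes tested 37.8% lay below in this way in *Tsix*-stop cells and 52.0% above in E8 cells. The share of genes that did both was not counted. *Sox17*, *Foxa2*, *Hnf4a* and *Pdgfra* passed the E8 filter only through KO libraries. *Sox17*, *Foxa2* and *Hnf4a* passed the *Tsix*-stop filter only through wt EBs. The log2 fold changes in *Tsix*-stop and E8 cells were -2.67 and 2.67 for *Gata4*, -3.11 and 1.51 for *Gata6*, -3.06 and 2.61 for *Sox17*, -2.65 and 2.76 for *Foxa2*, -3.35 and 1.27 for *Hnf4a*, -2.72 and 2.86 for *Dab2* and -3.26 and 2.71 for *Pdgfra*. The difference between the lines was not tested. The line, the deletion, the clone and the unit of the values differ together and cannot be told apart.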

How the results depend on the processing

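Leaving out 1 library at a time kept 94 of 96 counts of members called within 1.5 times, and the D0 *Tsix*-stop count of 1 ran from 1 to 2. Other alternatives kept 72 of 84. Against the CRISPR control, 1 library a day, *Foxa1* (0.22) and *Hnf4a* (1.47) turned direction at D15. At D0 *Gata6* (-0.78), *Sox17* (-0.066), *Foxa2* (-0.75) and *Foxa1* (-0.24) did. With the control added to wt 0 members were called at D0, 4 for KO D15 against D0 and 1 interaction. The shares of all genes called in that fit are not given here. A filter of 2.5 CPM in at least 4 libraries tested 4 members and called 4 (KO at D15), 4 (wt by day), 4 (KO by day) and 3 (interaction), and KO fitted alone tested 4 and called 4. Without a filter 2 were called at D0. With pseudocounts of 0.1 and 0.5 TPM 3 and 2 were called for E8 wt by day, and the *Foxa2* interaction was 0.33 with 0.1. The *Dab2* interaction ran from -0.25 to 0.78 without 1 library and *Hnf4a* by day in KO -0.16 without KO replicate 1 at D0. The cause was not tested, but for the filters, which test fewer or more genes. Differences between replicates 1 and 2 had correlations between groups from -0.21 to 0.23, the highest for *Tsix*-stop KO at D0 with KO at D15. Whether KO replicate numbers follow the 2 clones is not known. The replicate block was shared by wt and KO, so it does not model such a pairing. With it 8 of 8 were called at D15 in *Tsix*-stop cells and no call changed. 2 libraries a group, unknown E8 depth and under 60 counts for *Gata6*, *Sox17*, *Foxa1* and *Foxa2* at D0 limit precision.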
